A study of Mus musculus with 4 samples.

Results

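Dual-specificity phosphatases (DUSPs) of the mitogen-activated protein kinase (MAPK) pathway were followed through 2 marker tables of sorted group 2 innate lymphoid cells (ILC2s). The 6 genes, *Dusp1*, *Dusp2*, *Dusp4*, *Dusp5*, *Dusp6* and *Dusp10*, were chosen by name, out of 3488 genes that either table held, and all 6 were found in both tables, as were 820 of the 3488. The genes were chosen with earlier results of these data known, so their presence in both is not a finding. The cells came from wild-type BALB/c mice aged 8 weeks, which received recombinant IL-33 (rIL-33), at 0.5 µg a day, or the phosphate-buffered saline (PBS) control into the peritoneum for 5 days, and they were sorted from liver or lung as lineage-negative, CD127+, Thy1+ and ST2+ cells. There was 1 droplet library of transcript 3′ ends for each of the 4 groups, namely PBS lung, PBS liver, rIL-33 lung and rIL-33 liver. The authors pooled the 4 libraries before they made the tables, so neither rIL-33 and PBS nor liver and lung were compared here.

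MAPK signalling passes from kinase to kinase until ERK, p38 or JNK is phosphorylated on a threonine and a tyrosine and then enters the nucleus to switch on transcription factors of the FOS, JUN and EGR families. DUSPs of this class remove both phosphates. Many are themselves switched on by the pathway, which makes them negative feedback inhibitors. DUSP1, DUSP2, DUSP4 and DUSP5 act in the nucleus, DUSP6 acts on ERK in the cytoplasm, and DUSP10 acts mainly on p38 and JNK. In ILC2s, the IL-33 receptor ST2 feeds into p38, JNK and NF-kB, and cytokine genes such as *Il13* and *Il5* respond to it.

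The promoters of 3 genes are shown because they differ in the elements through which signalling is known to reach such genes. RefSeq promoters on GRCm38.p6 were found for 5 of the 6 genes, all but *Dusp4*. Each window below runs 5′ to 3′ on the strand of its gene, from base -200 to base -51 before the RefSeq start, which is 150 bases, and holds no exon of that gene. Capitals mark matches to a cyclic AMP response element (CRE, TGACGTCA) or its core (TGACG) in *Dusp1*, to an E-box (CACGTG) and an EGR element (GCGGGGGCG or GCGTGGGCG) in *Dusp2*, and to a pair of CArG boxes, the element bound by serum response factor, and a CRE core in *Dusp5*.
*Dusp1*, chr17:26508523-26508672, minus strand: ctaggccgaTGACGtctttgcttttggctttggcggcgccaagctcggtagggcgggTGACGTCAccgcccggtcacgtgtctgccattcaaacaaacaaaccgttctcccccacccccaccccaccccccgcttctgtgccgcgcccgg
*Dusp2*, chr2:127335959-127336108, plus strand: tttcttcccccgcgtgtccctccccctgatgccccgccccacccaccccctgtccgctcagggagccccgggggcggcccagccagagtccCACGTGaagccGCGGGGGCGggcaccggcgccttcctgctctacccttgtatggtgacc
*Dusp5*, chr19:53528945-53529094, plus strand: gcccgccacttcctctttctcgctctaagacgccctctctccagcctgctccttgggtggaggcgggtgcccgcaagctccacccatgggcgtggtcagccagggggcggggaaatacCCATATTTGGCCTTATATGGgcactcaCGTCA

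The 6 protein-coding genes lie on 6 chromosomes of GRCm38: *Dusp1* at chr17:26505590-26562128 on the minus strand, and on the plus strand *Dusp2* at chr2:127336159-127338376, *Dusp4* at chr8:34807297-34819894, *Dusp5* at chr19:53529109-53542431, *Dusp6* at chr10:99263231-99267489 and *Dusp10* at chr1:184013302-184075636. The span of *Dusp1* includes a longer transcript from an upstream start, so its window lies in an intron of that transcript. Motifs were searched on both strands of the 250 bases before the start. *Dusp1* held the CRE at base -143 and cores at -191, -143 and -140, the last 2 of which lie inside the CRE, and an E-box at -126 left in lower case above. *Dusp5* held CArG boxes at -82 and -72, which abut, and a core on the other strand at -55. *Dusp2* held the E-box at -109 and the EGR element at -98. *Dusp6* and *Dusp10* held none of the 7 motifs searched, which also included AP-1 (TGANTCA) and NF-kB. Among 32851 mouse promoters of the same length, 1.55% held the CRE, 17.8% its core, 1.47% a CArG box, 3.06% the EGR element, 6.02% the E-box, 6.75% the AP-1 motif and 3.90% the NF-kB motif. A match describes these letters and is not evidence that a factor binds there.

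Each row pairs a gene with a cluster in which its average was higher than in the remaining cells of that table, and is called a listing. A listing carries 2 shares of cells in which the gene was above 0, that of the cluster and that of all other cells, and these shares are the values reported. Among ILC2s, 10 subclusters numbered from 0 had 3745 listings of 2629 genes. Among all sorted cells, 21 named cell types had 4422 listings of 1679 genes. How large each cluster was follows from the shares. Subclusters 0 to 4 held 27.3%, 20.1%, 18.3%, 14.9% and 9.23% of ILC2s, and subclusters 5 to 9 held 3.87%, 3.72%, 1.42%, 0.668% and 0.611%. The tables themselves give neither cell numbers nor sequencing depth. The shares are printed without counting intervals, no test over samples was possible, and neighbours in an order of shares cannot be said to differ. No cell type known to lack these genes gave a level of free RNA to set beside the shares, so a value above 0 is not taken as expression by that cell. Before the ILC2s were subclustered, the study removed cells with markers of other lineages (*Cd45r*, *Cd3*, *Cd11b* and *Fceri* among them), and listed markers of other cell types are given beside the members' values in the subclusters. Values of subclusters 7, 8 and 9 rest on the fewest cells.

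*Dusp1*, the immediate early member that acts on p38 and JNK as well as ERK, was the member detected in most ILC2s, in 75.9% of them (SD between its listings 0.0336 points). It was listed for subclusters 1, 2 and 3. The share of cells with *Dusp1* was 85.2% in subcluster 1 against 73.6% in all other ILC2s, 84.3% in subcluster 3 against 74.4%, and 83.7% in subcluster 2 against 74.2%. The 3 shares thus lay within 1.5 points of each other, and each was 9.5 to 11.6 points above the rest. The 7 subclusters that did not list *Dusp1* held it in 66.2% of their cells. Subclusters 1, 2 and 3 were 53.3% of ILC2s and held 59.3% of those with *Dusp1*. Subcluster 2 also listed the T cell marker *Trbc2* (87.2% against 80.6%) and the γδ T cell marker *Tcrg-C4* (63.3% against 50.5%). Subcluster 3 listed the endothelial marker *Stab2* (59.5% against 30.1%), which the sorted type named Endothelium cell did not list. Their part in the *Dusp1* values was not tested, nor was that of the markers given for subcluster 1 with *Dusp5*.

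*Dusp2*, a nuclear phosphatase of ERK and p38 known from activated lymphocytes, was detected in 18.6% of ILC2s. It was listed for subclusters 1, 4 and 8. The share was 44.5% in subcluster 4 against 16.0% in all other ILC2s, 34.8% in subcluster 8 against 18.5%, and 32.6% in subcluster 1 against 15.1%. The other 7 subclusters held *Dusp2* in 11.0% of their cells together. Subclusters 1, 4 and 8 were 30.0% of ILC2s and held 58.4% of those with *Dusp2*, with 35.1% in subcluster 1 and 22.1% in subcluster 4.

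*Dusp4*, a nuclear phosphatase close to *Dusp1* in function, followed *Dusp2* in subclusters 4 and 8 but was not listed for subcluster 1. Its share was 37.9% in subcluster 4 against 11.9% in all other ILC2s, and 34.8% in subcluster 8 against 14.2%. The other 8 subclusters held it in 11.8% of their cells, and all ILC2s in 14.3%. Subcluster 4 alone held 24.5% of the ILC2s with *Dusp4* while being 9.23% of ILC2s. Subcluster 4 also listed 5 of 6 proliferation markers (*Cdk1*, *Mki67*, *Pclaf*, *Stmn1* and *Top2a*), with shares of 34.0% to 77.2%, and subcluster 8 listed 1 of them, *Top2a*, at 49.4%. Subcluster 4 further listed *Nkg7*, 1 of 8 NK and ILC1 markers, in 30.5% of cells against 11.7%. The part of these cells in the shares of *Dusp2* and *Dusp4* was not tested.

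*Dusp5*, the nuclear phosphatase specific for ERK, was listed for subclusters 1, 7 and 8. It was detected in 69.5% of cells in subcluster 7 against 40.8% of all other ILC2s, in 66.3% in subcluster 1 against 35.0%, and in 61.8% in subcluster 8 against 41.1%. The difference of 31.3 points in subcluster 1 was the largest of any member among the subclusters. All ILC2s held *Dusp5* in 41.2% of cells, and the other 7 subclusters in 34.1%. Subcluster 1 held 32.2% of the ILC2s with *Dusp5*, whereas subclusters 7 and 8, being small, held 2.40% and 1.0%. Subclusters 1 and 8 also listed *Pecam1*, 1 of 6 endothelial markers, in 38.1% of cells against 24.6% and in 49.4% against 27.1%. Subcluster 1 further listed 1 of 7 B and plasma cell markers, *Cd79b* (38.7% against 19.9%), and 1 of 10 T cell markers, *Trbc2* (86.1% against 80.7%). Subcluster 8 listed 1 of 7 γδ T cell markers, *Tcrg-C4* (77.5% against 52.7%). Their part in the DUSP values of these subclusters was not tested. An antisense gene is annotated across the start of *Dusp5*, and whether reads were counted by strand was not given in the sources used here.

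*Dusp10*, the member directed at p38 and JNK, had 1 listing among the subclusters, in subcluster 7. There 42.5% of cells had it, against 13.1% of all other ILC2s, a difference of 29.4 points and the highest odds ratio of any member among the subclusters (4.90). All ILC2s held it in 13.5% of cells. Since subcluster 7 was 1.42% of ILC2s, it held 4.47% of those with *Dusp10*. This subcluster also listed *Il4* (41.5% of cells against 22.3%), 1 of 7 basophil markers, which is also counted here among the type 2 cytokines. It further listed 2 of 7 γδ T cell markers, *Tcrg-C1* and *Tcrg-C4*, and 1 of 10 T cell markers, *Trbc1*. Of 8 NK and ILC1 markers it listed 1, *Nkg7*, at 40.0% against 13%. The part of other cell types in its *Dusp5* and *Dusp10* shares was not tested.

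*Dusp6*, the cytoplasmic ERK phosphatase, was listed for subclusters 0, 5 and 9, none of which listed another DUSP member. *Dusp1* was likewise the only member listed for subclusters 2 and 3. The share of cells with *Dusp6* was 42.0% in subcluster 9 against 24.5% in all other ILC2s, and 27.6% in subcluster 0 against 23.5%. In subcluster 5 the share was lower than elsewhere, 9.9% against 25.2%, although *Dusp6* was listed there, as higher on average. That combination was common in subcluster 5, where 978 of 1000 listings had the lower share inside, so a listing there is not a sign of more positive cells. Subcluster 5 also listed 3 of 10 T cell markers, of which *Cd3e* was found in 32.0% of cells against 4.7% and *Cd3g* in 39.5% against 32.6%, while *Trbc1* had the lower share inside, 45.0% against 81.0%. Of 7 γδ T cell markers it listed *Trdc* with the higher share inside (25.6% against 7.0%) and *Trdv4* with the lower (9.9% against 26.6%). *Nkg7* had 26.3% against 12.9%, and *Pecam1* had 8.6% against 28.0%. The part of such cells in the *Dusp6* value was not tested. The 7 subclusters that did not list *Dusp6* held it in 24.1% of their cells, close to the 24.6% over all ILC2s. Subclusters 0 and 9 also listed *Stab2*, 1 of 6 endothelial markers, in 68.4% and 70.4% of cells, as did subcluster 3 (59.5%) without *Dusp6*. The sorted type named Endothelium cell did not list *Stab2*, and the part of this marker in the *Dusp6* values was not tested. Subcluster 0 held 30.6% of the ILC2s with *Dusp6*, against a size of 27.3%.

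**Figure D1:**
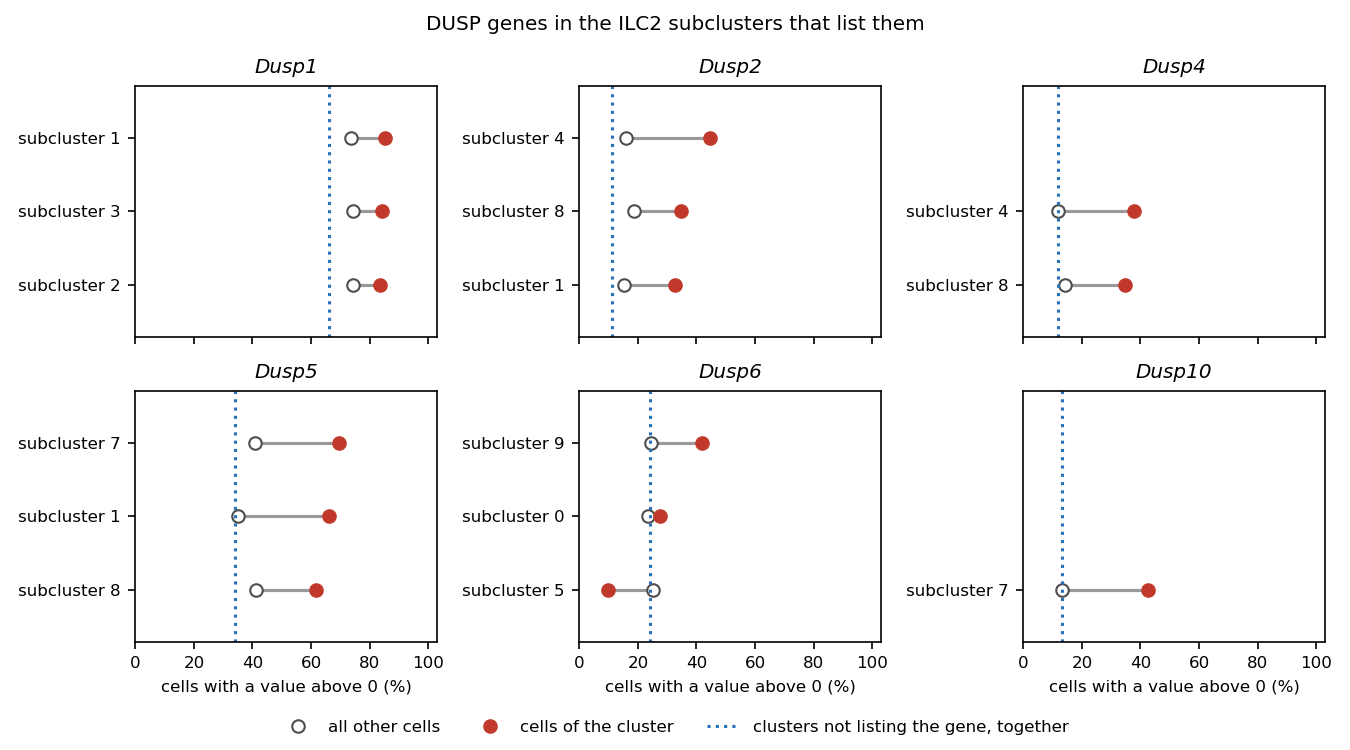
Share of cells with each DUSP gene (percent, horizontal axis) in the ILC2 subclusters that list it, with filled points for the subcluster, open points for all other ILC2s and a dotted line for the subclusters that do not list the gene, pooled. *Dusp5* and *Dusp10* reach 69.5% and 42.5% in subcluster 7, *Dusp2* and *Dusp4* reach 44.5% and 37.9% in subcluster 4, and *Dusp6* in subcluster 5 is the one listing in which the filled point (9.9%) lies left of the open one (25.2%).

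**Figure D2:**
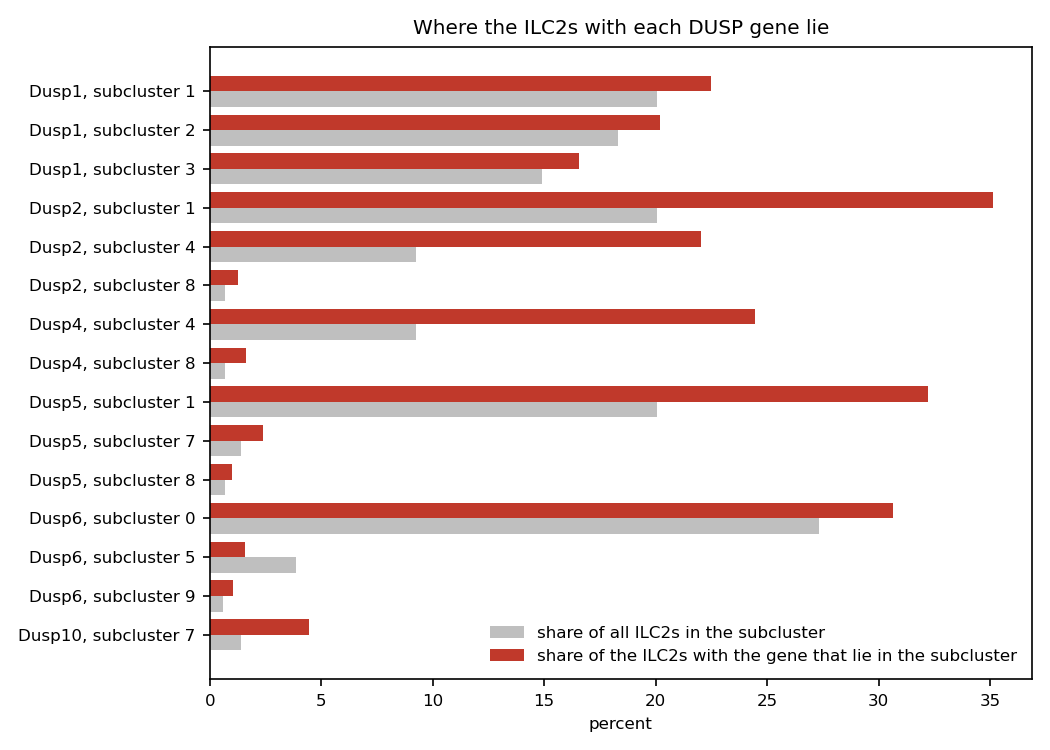
For each listing among the ILC2 subclusters, the grey bar gives the share of all ILC2s that lie in the subcluster and the red bar the share of the ILC2s with the gene that lie in it (percent). Red exceeds grey in 14 of 15 listings, and the widest gaps are *Dusp2* in subcluster 1 (35.1% against 20.1%) and *Dusp4* in subcluster 4 (24.5% against 9.23%).

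Counted by subcluster, the 6 genes had 15 listings. Subcluster 1 listed 3 of them (*Dusp1*, *Dusp2* and *Dusp5*), where 13.8% of the 2629 genes were listed, and subcluster 8 listed 3 (*Dusp2*, *Dusp4* and *Dusp5*), where 9.62% were. Subcluster 4 listed 2 (*Dusp2* and *Dusp4*) against a background of 30.5%, and subcluster 7 listed 2 (*Dusp5* and *Dusp10*) against 10.3%. With 6 genes, 2 listings in subcluster 4 are close to that background. Subclusters 0, 2, 3, 5 and 9 listed 1 member each, where 11.4%, 4.98%, 9.01%, 38.0% and 7.57% of genes were listed. Subcluster 6 listed none, against a background of 7.23%. The median difference between inside and outside was 17.5 points over the 15 DUSP listings and 13.3 points over all 3745 listings, which include 1000 of subcluster 5 with a median of -21.3 points. Set against the median of its own subcluster, the difference was larger in 10 of the 15 DUSP listings and smaller in 5, among them both of subcluster 4 (28.5 and 26.0 points against a median of 34.1) and *Dusp1* in subcluster 2 (9.5 against 16.1). A lower share inside was found in 1 of the 15 (6.67%) and in 29.4% of all listings, most of which came from subcluster 5.

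The remaining parts of the pathway were read from lists of its kinases, of other feedback inhibitors and of its target transcription factors. Percentages set beside counts for a subcluster are of the 2629 genes listed for any subcluster. Only listed genes were given by the authors, so no such percentage exists for counts over any subcluster. None of 15 other DUSP genes was listed for a subcluster. Of 25 genes of the MAPK cascade (kinases and their upstream activators), 8 were listed. *Map3k8*, the kinase that links inflammatory receptors to ERK, was found in 57.3% of subcluster 8 against 26.0% of other ILC2s, and in 36.0% of subcluster 1 against 23.8%. *Map2k2*, the kinase that phosphorylates ERK, had 85.4% against 64.0% in subcluster 8. The 4 listings of this list in subcluster 5, *Map3k1* among them, all had the lower share inside.

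Of 18 other feedback inhibitors, 11 were listed for a subcluster. Subclusters 1 and 8 listed 3 of these 11 each, against 13.8% and 9.62% of the 2629 genes. In subcluster 1, *Rasa3*, which returns RAS-type GTPases to their inactive state, was found in 53.5% of cells against 13.3%. *Zfp36*, whose product degrades cytokine mRNA, had 87.5% against 64.3% in subcluster 1, and *Gadd45b* had 74.6% against 56.9%. Subcluster 8 had *Gadd45b* in 83.1% of cells against 60.3%, *Zfp36* in 85.4% against 68.9%, and *Rgs1*, a brake on G protein signalling, in 98.9% against 86.7%. Subcluster 7, with *Dusp10*, had *Ier3* in 25.5% of cells against 4.9%. Subcluster 3, which listed *Dusp1* alone among the members, listed 8 of the 11, against 9.01% of the 2629 genes. Among the 8 were *Spry2* in 29.6% of cells against 13.7% and *Spry1* in 27.6% against 15.2%. These 2 Sprouty genes, inhibitors of RAS signalling to ERK, were singled out after their values were seen. The median difference over the 8 was 12.05 points, and *Rgs1* and *Zfp36l2* differed by 0.6 and 0.7 points.

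Of 25 target transcription factors, 17 were listed. Subcluster 1 had 4 of these 17, against 13.8% of the 2629 genes. These were *Klf2* (87.4% of cells against 43.5%), *Nr4a1* (79.5% against 55.3%), *Ier2* (91.7% against 75.0%) and *Nr4a3* (29.3% against 20.5%). Subcluster 8 had 4 as well, against 9.62%, with *Nr4a1* in 82.0% against 60.0%, *Nr4a3* in 40.4% against 22.2%, *Fosl2* in 60.7% against 44.4% and *Jund* in 100% against 96.6%. *Nr4a1*, an orphan nuclear receptor induced within minutes of antigen receptor or ERK signalling, also had 89.0% against 59.7% in subcluster 7. That subcluster listed 5 of the 17 and 10.3% of the 2629 genes. Subcluster 3 listed 14 of the 17, the most of any subcluster, against 9.01% of the 2629 genes, with *Klf4* in 43.4% of cells against 18.1%. *Fos* and *Fosb*, singled out there after their values were seen, had 92.9% against 77.9% and 92.4% against 73.9%. The median difference over the 14 was 10.5 points, and *Ier5*, *Jund*, *Jun* and *Junb* differed by 0.7, 1.1, 2.1 and 3.5 points. Subcluster 5 listed 12, where 38.0% of the 2629 genes were listed, and in 11 of the 12 the share was lower inside.

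**Figure D3:**
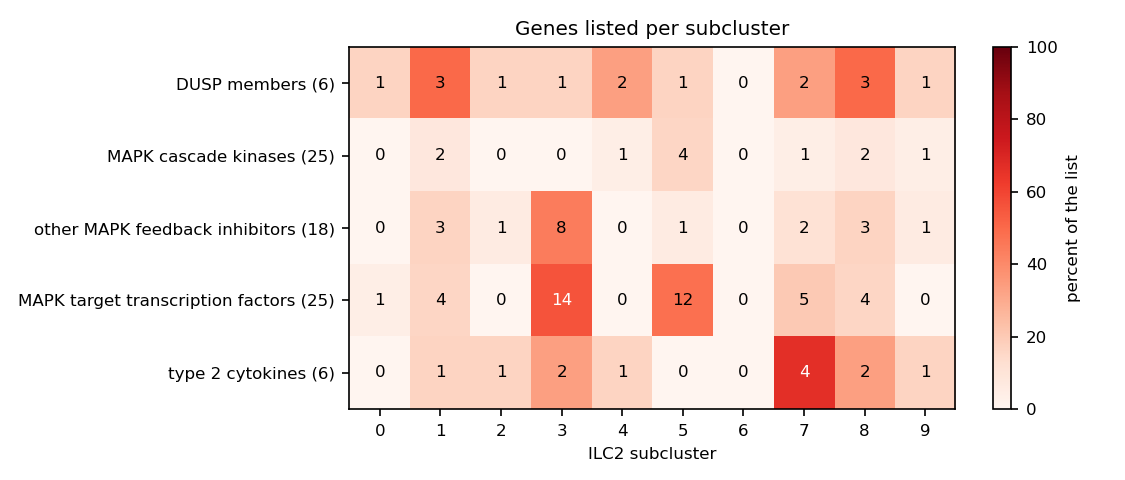
Number of genes of each list (rows, with the size of the list in brackets) listed for each ILC2 subcluster (columns), coloured by the percent of the list. The 6 DUSP members peak at 3 in subclusters 1 and 8, whereas target transcription factors peak at 14 in subcluster 3 and type 2 cytokines at 4 of 6 in subcluster 7.

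Among type 2 cytokines, *Il13* was listed for subclusters 1, 2, 4, 7 and 8. Its share was 69.7% in subcluster 8 against 36.8%, 62.1% in subcluster 4 against 34.4%, 60.5% in subcluster 7 against 36.6%, 56.5% in subcluster 2 against 32.6% and 52.8% in subcluster 1 against 33.0%. *Areg*, encoding the tissue repair factor amphiregulin, had 62.0% against 39.2% in subcluster 7, 57.3% against 39.5% in subcluster 8 and 51.7% against 37.4% in subcluster 3.

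The cell type table, which compares named types of all sorted cells, is not on the scale of the subcluster table. *Dusp10* was found in 73.8% of all sorted cells but in 13.5% of the ILC2s of the other table, and since ILC2 and ILC2_2 were 45.0% of sorted cells, the remaining types would need *Dusp10* in 123% of their cells, which cannot be. The same held for *Dusp2* (121%) and *Dusp5* (120%). Values are therefore compared within a table, and names of types are spelled as in the table. Because the assay behind the table is not given in the sources used here, a value above 0 in it may not stand for a detected transcript. *Dusp1*, *Dusp5*, *Dusp2* and *Dusp10* were above 0 in 85.7%, 84.5%, 74.9% and 73.8% of sorted cells, and *Dusp6* and *Dusp4* in 39.4% and 33.8%. The gate removed cells with CD3e or the T cell receptor β chain on the surface. Yet CD4, Treg, CD8_Naive and CD8_Effector listed 7 to 8 of 10 T cell markers. In each of these types *Trbc1* had the lower share inside (74.7% against 87.6% in CD4). *Cd3e* was above 0 in 96.2% of CD4 and also in 83.1% of all other cells. Basophil listed 7 of 7 basophil markers, NK 8 of 8 and ILC1 6 of 8 NK and ILC1 markers, and ILC2 8 of 10 ILC2 markers. Of these, *Tbx21* in NK had the lower share inside (51.1% against 51.8%). The type named ILC3 listed 2 of 5 ILC3 markers and 5 of 10 T cell markers, of which *Cd3d* had the lower share inside (81.9% against 83.6%). Endothelium cell listed 3 of 6 endothelial markers, and MMP_LMPP 3 of 7 B and plasma cell markers. The *Dusp* values of these types are given under those names.

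*Dusp6* was the 1 member listed for the type ILC2. It was found in 52.3% of the type ILC2 against 29.5% of all other cells, a difference of 22.8 points where the median over all listings of that type was 21.3 points, and in 48.8% of ILC3 against 39.2%. The type ILC2 also listed the endothelial marker *Stab2* (77.2% against 45.1%) and the γδ T cell marker *Trdv4* (57.8% against 36.7%). The type Endothelium cell did not list *Stab2*. The part of both markers in the *Dusp6* value was not tested. The 19 types that did not list *Dusp6* held it in 28.9% of their cells. ILC2 was 43.2% of sorted cells and held 57.4% of those with *Dusp6*. The small type ILC2_2 listed *Dusp1* instead, with a share of 72.2% against 85.9%, although 53.0% of listings of that type had the lower share inside. ILC2_2 also listed *Pecam1* (73.8% against 46.7%), *Igkc* (33.8% against 21.1%), *Ighm*, *Stab2* and *Trdv4* with the higher share inside, and *Trbc1*, *Cd4*, *Tbx21*, *Rora* and *Il17rb* with the lower. The part of such cells in its *Dusp1* value was not tested.

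Among the types that listed them, *Dusp5* and *Dusp1* reached their highest shares in Basophil and MMP_LMPP. *Dusp1* was found in 100% of Basophil against 85.5% of other cells, in 99.2% of MMP_LMPP and 97.6% of Endothelium cell against 85.6%, in 93.4% of gdT_TypeIII_ITGAE and in 86.9% of Treg. *Dusp5* was found in 99.2% of MMP_LMPP against 84.4%, in 99.1% of Basophil against 84.3%, in 93.9% of ILC1 against 84.0%, in 93.6% of NK against 84.1%, in 93.4% of ILC1_ILC3, in 93.1% of gdT_TypeI and in 89.3% of gdT_TypeIII_ITGAE. CD8_Effector listed *Dusp5* with the lower share inside, 77.3% against 84.5%. The types that did not list these genes still held *Dusp1* in 85.5% and *Dusp5* in 81.7% of their cells, so the range left above them was narrow. Markers of other types were listed too. Basophil had *Cd14* (85.7% against 32.8%) and *Gzmb* (91.9% against 53.2%), among others. Endothelium cell had *Gata2* (84.5% against 6.5%) and *Stmn1* (92.8% against 43.3%). MMP_LMPP had *Eng* (78.0% against 32.4%) and *Stmn1* (91.9% against 43.5%). Their part in the *Dusp1* and *Dusp5* values was not tested.

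Among the 8 types that listed it, *Dusp2* was highest in ILC1, NK and gdT_TypeI. Its share was 89.1% in ILC1 against 74.2% of other cells, 89.1% in NK against 74.4%, and 88.6% in gdT_TypeI against 73.1%. The type gdT_TypeI also listed 4 of 8 NK and ILC1 markers, *Nkg7* (97.2% against 76.3%) and *Klrd1* (82.6% against 74.7%) with the higher share inside and *Eomes* and *Prf1* with the lower. MMP_LMPP had 83.7%, CD8_Naive 82.0% and Plasma cell 81.8%, each 6.9 to 8.8 points above the rest. CD8_Effector (72.9%) and gdT_Naive (72.5%) listed it with shares 2.0 and 2.6 points below those of other cells. The 13 types that did not list *Dusp2* held it in 70.7% of their cells.

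*Dusp4* was listed for 3 types of T lineage name. The share was 58.7% in gdT_TypeIII_ITGAE against 33.5% of other cells, a difference of 25.2 points that was the largest of any member in this table, 52.5% in gdT_TypeIII_CD163l1 against 33.5%, and 40.7% in Treg against 33.6%. The 18 types that did not list it held it in 33.0% of cells. The B cell marker *Cd79b* was also listed for gdT_TypeIII_ITGAE (44.6% against 29.0%) and gdT_TypeIII_CD163l1 (46.1% against 28.9%), and *Pecam1* for Treg (56.5% against 47.0%), and their part in the *Dusp4* values was not tested. *Dusp10* was listed for CD4 (79.3% against 73.6%), CD8_Naive (73.1% against 73.8%), Treg (69.6% against 73.8%) and gdT_Naive (65.2% against 74.3%), so in 3 of its 4 types the share was the lower one. In CD4, gdT_Naive and CD8_Naive, 76.3%, 74.5% and 57.1% of all listings had the lower share inside.

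**Figure D4:**
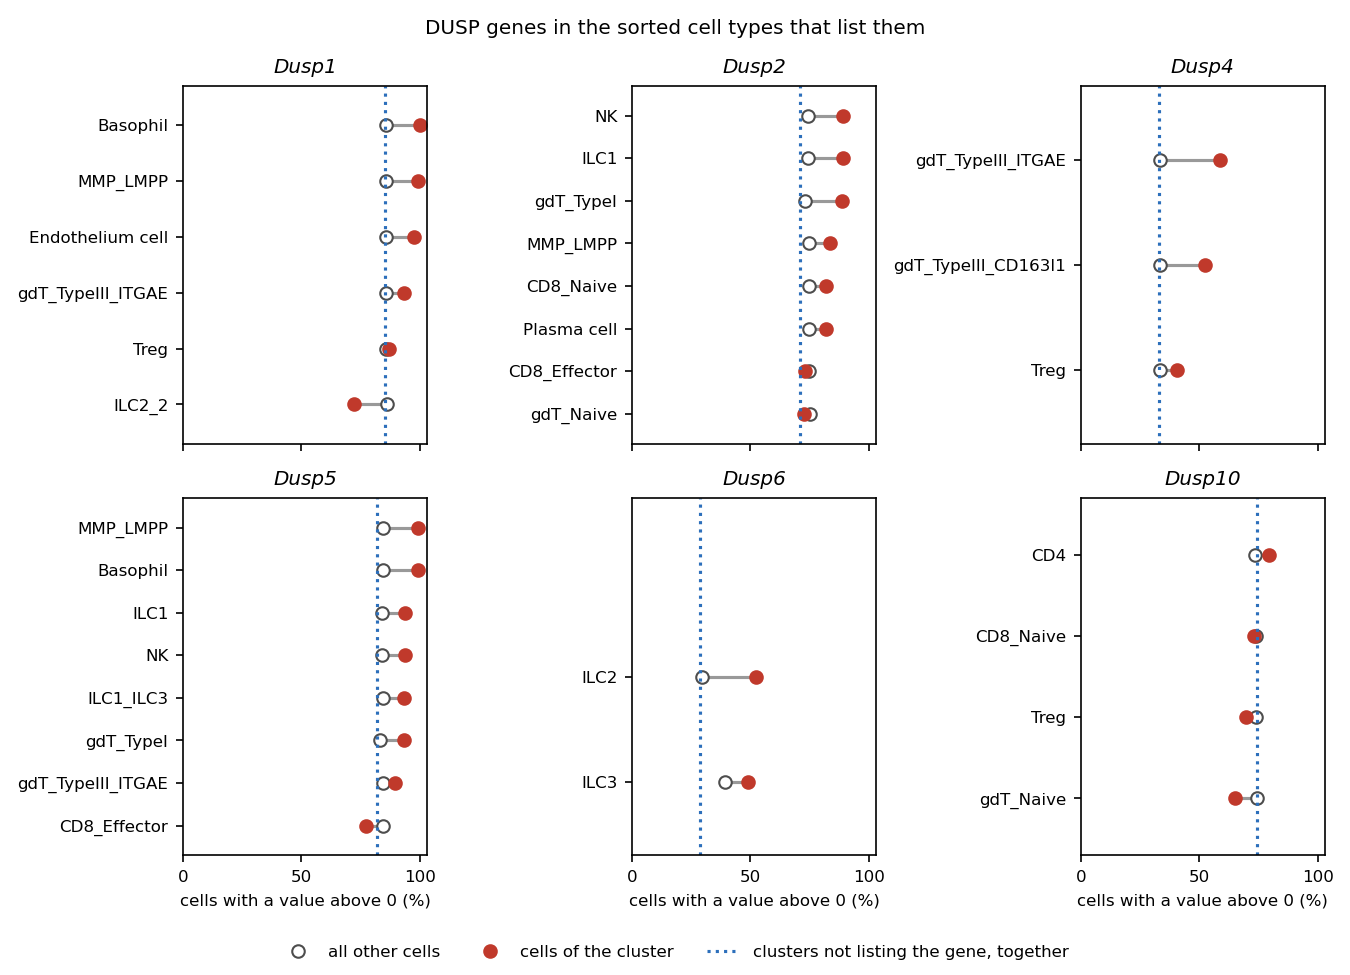
Share of cells with each DUSP gene (percent, horizontal axis) in the sorted cell types that list it, with filled points for the type, open points for all other sorted cells and a dotted line for the types that do not list the gene, pooled. *Dusp4* in gdT_TypeIII_ITGAE (58.7% against 33.5%) and *Dusp6* in ILC2 (52.3% against 29.5%) have the widest gaps, and *Dusp10* lies below the other cells in 3 of 4 types.

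Counted by type, the 6 genes had 31 listings. MMP_LMPP, Treg and gdT_TypeIII_ITGAE listed 3 members each, where 24.0%, 8.93% and 11.7% of the 1679 genes were listed. Basophil, CD8_Effector, CD8_Naive, ILC1, NK, gdT_Naive and gdT_TypeI listed 2 each, against backgrounds of 16.4%, 5.60%, 11.8%, 8.64%, 11.7%, 8.87% and 8.64%. CD4, Endothelium cell, ILC1_ILC3, ILC2, ILC2_2, ILC3, Plasma cell and gdT_TypeIII_CD163l1 listed 1 each, against 7.80%, 23.6%, 13.4%, 8.10%, 11.9%, 9.11%, 12.2% and 11.4%. Macrophage, Prolifelation cell and gdT_TypeII listed none, against 17.3%, 30.6% and 1.67%. The median difference was 9.0 points over the DUSP listings and 18.4 points over all 4422 listings, with 15 of the 31 above the median of their own type and 16 below it, and a lower share inside was found in 7 of 31 (22.6%) and in 16.3% of all.

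Only listed genes were given by the authors, so no share of all measured genes can be set beside the counts in this paragraph. Of the other lists, 1 of 15 other DUSP genes appeared among the cell types, *Dusp3*. It was found in 98.4% of MMP_LMPP against 42.3% and in 81.7% of Endothelium cell against 42.2%. The cascade was represented by 1 of its 25 genes, *Map3k8*, in 89.3% of Macrophage against 47.0%. Feedback inhibitors were listed for 11 of 18 genes, with *Ier3* in 97.3% of Basophil against 37.2% and in 92.8% of Endothelium cell against 37.4%, and *Zfp36* in 98.2% of Basophil against 72.3% and in 95.9% of MMP_LMPP against 72.5%. Target transcription factors were listed for 17 of 25 genes, with *Egr3* in 99.2% of MMP_LMPP against 49.7%, *Fosl1* in 89.6% and *Egr1* in 98.5% of Basophil against 42.0% and 60.2%, and *Myc* in 82.9% of MMP_LMPP against 45.9%. Differences were wide in Basophil and MMP_LMPP in general, with medians of 33.3 and 29.8 points over all their listings. Type 2 cytokines were listed for 5 of 6 genes, with *Il13* in 84.8% of Basophil against 22.7%, *Il4* in 75.2% of Basophil against 27.5%, and *Csf2* in 65.5% of ILC2 against 37.4% and in 69.9% of ILC1_ILC3 against 49.4%.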

How the data were processed

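ILC2-enriched cells of 4 libraries were measured by single-cell RNA sequencing in droplets. Per the study's methods and the submitters' processing notes, reads were processed with Cell Ranger on mm10, flow cytometry served to remove dead cells and doublets, cells with fewer than 500 genes were excluded, and cells were clustered in Seurat. No doublet caller was run here, since the tables hold no cells. Which Seurat assay the tables used is not given in the sources used here. The authors deposited, for each listing, the fraction of cells with a value above 0 in the cluster and in the remaining cells, printed here as a percent. Both tables also hold the authors' average log2 fold changes, p-values and adjusted p-values, which were not used, and 0 further columns of values.

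From the deposited fractions, cluster sizes were solved by least squares over genes listed for 2 or more clusters: the share outside plus the size times the difference between inside and outside is the share over all cells, whichever cluster lists the gene. The sizes summed to 100.1% for the cell types and 100.2% for the subclusters, the residuals were 0.0233 and 0.0204 points, and the fit was tested on simulated data. Shares over all cells, in the clusters that do not list a gene, and the part of positive cells held by a cluster follow from them. Python 3.11.15, numpy 2.4.6, pandas 2.3.3 and matplotlib 3.10.9 were used. Gene positions and promoters were taken from GENCODE M21 and RefSeq on GRCm38, the assembly of mm10.

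The 6 genes and the gene lists were chosen with earlier results of these data known. Genes named beside the members were list genes listed for the subclusters with the most members, the 4 widest differences of each list, the 3 genes with the most similar set of listing clusters and markers that check a cluster name. Alternatives were stricter rules for a listing, other choices of genes for the sizes, and odds ratios. A few genes that this rule names are not reported here.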

Additional observations from a re-analysis of the deposited data

How the results depend on the processing

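No paired analysis was possible because the tables pool all 4 libraries and no result comes from a test. The shares of the 6 genes over all cells and in the clusters that do not list them were refitted with sizes from genes listed for 3 or more clusters and from differences of 10 points or more, and the shares over all cells also from the smallest cluster alone. Over these 60 refits no share moved by more than 0.0458 points. Every listing of a gene gives the same share over all cells by construction. The refits and the SD between listings therefore reflect rounding and the fit, and do not measure the sampling error of the shares. Ordering clusters by odds ratio changed the rank of 4 types for *Dusp5* and of none for the other genes. Counting listings with a higher share inside left 0 members in CD8_Effector, ILC2_2, gdT_Naive and subcluster 5, and 1 in CD8_Naive. Counting listings at least 10 points higher inside left 0 in CD4, CD8_Effector, CD8_Naive, ILC1_ILC3, ILC2_2, ILC3, Plasma cell, Treg, gdT_Naive and subclusters 0, 2, 3 and 5, left 1 in ILC1, NK, gdT_TypeI and gdT_TypeIII_ITGAE, and left 11 of 31 listings among the cell types and 11 of 15 among the subclusters. *Dusp1* in subclusters 2 and 3 and *Dusp6* in subclusters 0 and 5 are the subcluster listings lost. For the other lists, that rule left 7 of 11 listings for the MAPK cascade and 19 of 40 for target transcription factors among the subclusters. Among the cell types it left 20 of 50 listings for feedback inhibitors and 39 of 78 for target transcription factors. The tables themselves do not give the number of cells, which limits every share.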

Other observations

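The 5 subclusters that listed *Il13* (1, 2, 4, 7 and 8) held 11 of the 15 DUSP listings (73.3%), and they held 1819 of all 3745 listings (48.6%). All listings of *Dusp2*, *Dusp4*, *Dusp5* and *Dusp10* and 2 of 3 listings of *Dusp1* were among them, and 0 of 3 listings of *Dusp6*. Subcluster 5, which did not list *Il13*, held 1000 of the 3745 listings, 978 of them with the lower share inside, and 1 of the 15 DUSP listings. It thus lowers the 48.6% more than the 73.3%. The comparison with *Il13* was chosen after the listings were seen, and it is a description of pooled cells with no test.

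Genes with the same set of listing subclusters as a member were sought by the Jaccard index over the 10 subclusters, the number of shared clusters divided by the number in either set. *Dusp2* shared its set with 5 genes, led by *Ccr4*, *Car5b* and *Lgals3bp*. *Dusp4* shared its set with 10 genes, led by *Mt1*, a metallothionein, and *Psma4* and *Psma5*, subunits of the proteasome. *Dusp5* shared its set with 3 genes, *Snx18*, *Dennd4a* and *Srgn*, and *Dusp6* with 8, led by *Zeb2*, *Icosl* and *Dnajc10*. No gene had the set of *Dusp1*, and *Nfkbid*, *Sema4d* and *Tent5a* came closest, each with 2 of 3 clusters (index 0.667). Over the 21 cell types, *Dusp4* shared its set with *Itgae*, *Dusp6* with *Gclc* and *Dusp10* with *Mgst2* and *Actn1*. The nearest genes were *Ndrg1* (index 0.833) for *Dusp1*, *Bcl2l11* and *Nkg7* (0.75) for *Dusp2*, and *Ctsd* and *Sytl3* (0.75) for *Dusp5*. Sets of 2 or 3 clusters are short, so identical sets are common among 2629 genes.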
